A study of Mus musculus with 48 samples.

Results

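The 10 genes described here encode enzymes that build triglyceride. Gpam and Gpat3 acylate glycerol-3-phosphate, Agpat2 adds the next acyl chain, the lipins Lpin1, Lpin2 and Lpin3 convert phosphatidic acid to diacylglycerol, Mogat1 and Mogat2 make diacylglycerol from monoacylglycerol, and Dgat1 and Dgat2 turn diacylglycerol into triglyceride. The genes were chosen by symbol, and each matched 1 of the 56748 Ensembl identifiers counted in every library. RNA had been sequenced from 3 tissues, the liver, brown fat (BAT) and the white fat depot beside the epididymis (eWAT), of male littermates that were either hepAGT-/- (here KO), lacking angiotensinogen (Agt) in hepatocytes, or hepAGT+/+ (here WT). All mice, controls included, ate a Western diet with 21% milk fat and 0.2% cholesterol over 12 weeks, in cages kept at room temperature (20 to 22 °C, here RT) or at 30 °C (thermoneutrality, here TN), a temperature at which mice need little extra heat production. The 3 tissues, 2 genotypes and 2 housing temperatures gave 12 groups of 4 libraries, 48 in all. How the deletion was made and the age of the mice are not given in the sources used here.

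Most tissues make triglyceride by the glycerol phosphate pathway, in which fatty acids are attached to a glycerol backbone stepwise at the endoplasmic reticulum and the outer mitochondrial membrane. The liver exports much of its triglyceride in lipoproteins or keeps it in droplets, white fat stores it, and brown fat holds it as fuel for heat production. Each step has several isozymes with different tissue distributions. Agpat2 and Lpin1 are known as genes whose loss leads to a lack of fat tissue, Lpin1 also acts as a regulator of transcription, Dgat2 is the isozyme most tied to newly made fatty acids, and Mogat2 is best known from fat absorption in the gut. Angiotensinogen is the precursor of the angiotensin peptides.

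Total counts per library ran from 23.7 to 36.5 megacounts in liver, from 25.3 to 39.4 in BAT and from 28.7 to 43.7 in eWAT. The unit of a level is CPM (counts in each megacount of a library) after TMM scaling, which uses a trimmed mean of log ratios, over all 48 libraries, as mean ± SD where a group is summarised. Agt itself was at 314 to 505 CPM in the WT livers and at 165 to 236 CPM in the KO livers at RT, and at 368 to 594 and 142 to 241 CPM at TN, so every KO liver lay below every WT liver of its housing but kept Agt counts. The tissues carried the markers of their labels: the summed level of 8 hepatocyte markers was 57200 CPM or more in each liver, that of 8 brown adipocyte markers 2710 CPM or more in each BAT library, and that of 8 mature adipocyte markers 26600 CPM or more in each eWAT library. In 4 BAT libraries the summed level of 8 skeletal muscle markers exceeded 4000 CPM (KO at RT replicate 14, KO at TN replicate 2, WT at TN replicates 6 and 24). The other BAT libraries held from 2.02 CPM to 1340 CPM (KO at RT replicate 19), with KO at TN replicate 5 at 1050 CPM, so some muscle transcripts remained among them. In 1 eWAT library (WT at RT replicate 18) 8 epididymis markers summed to 780 CPM, against at most 12.5 CPM in the others. The sum of 8 B cell and lymph node markers was 9.15 to 40.6 CPM in liver, 6.14 to 43 CPM in BAT and 218 to 732 CPM in eWAT. Transcripts of hepatocytes were also present in the fat depots: the sum of 8 markers ran from 6.77 to 2710 CPM in BAT and from 27.8 to 4930 CPM in eWAT, the highest being KO at TN replicate 2 in BAT and KO at RT replicate 16 in eWAT. Tests on the members and lists were repeated without the 4 BAT libraries or that eWAT library with epididymis markers, and the values are given where a call named here was gained or lost within a tissue.

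**Figure D1:**
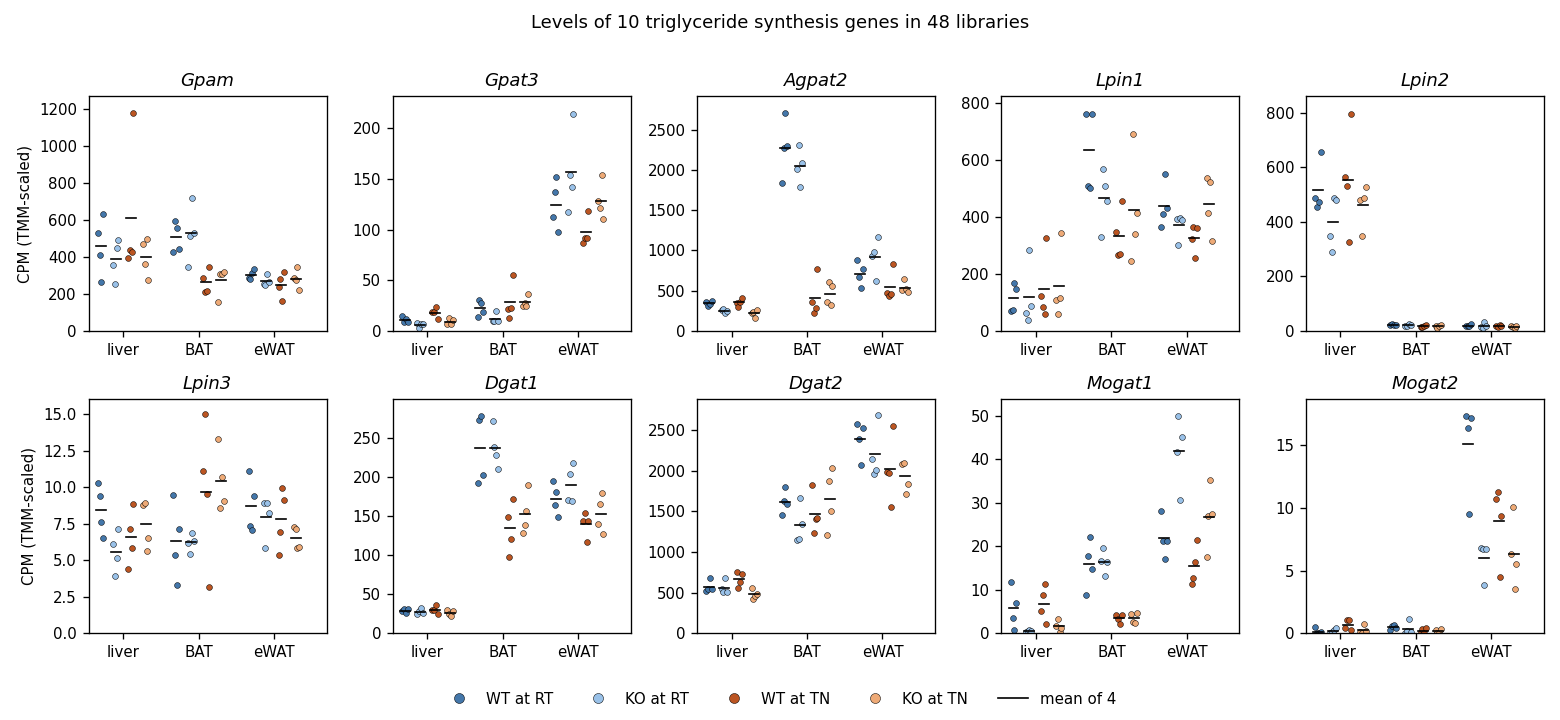
Level of each of the 10 genes in each library, as TMM-scaled CPM on linear axes that start at 0, by tissue (x axis) and by genotype and housing (colour). Points are single libraries and black lines the mean of 4. Lpin2 is high in liver only, at 289 to 795 CPM, while Gpat3 is highest in eWAT, at 87 to 214 CPM.

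Between eWAT and liver 9 of the 10 members differed, all but Lpin3, where 74% of all genes did. Gpam, the mitochondrial acyltransferase that starts the pathway, had overlapping ranges in the 3 tissues, with a median of 434 CPM in liver (256 to 1180 over 16 libraries), 347 CPM in BAT (159 to 721) and 281 CPM in eWAT (160 to 344). Gpat3, its isozyme at the endoplasmic reticulum, had a median of 9.75 CPM in liver (3.29 to 23.7), 22.3 CPM in BAT (9.35 to 55.1) and 119 CPM in eWAT (87 to 214), and the eWAT range lay wholly above the other two. Per kilobase of exon, Gpam stood at 65.1 CPM and Gpat3 at 2.78 CPM in liver, but at 42.2 and 34.1 CPM in eWAT. In the fit over 48 libraries the mean log2 difference of Gpat3 was 3.6 for eWAT minus liver (SE 0.17, adjusted p 3.57e-22) and 1.06 for BAT minus liver (SE 0.157, adjusted p 1.1e-07).

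Agpat2, which acylates lysophosphatidic acid, had its widest range in BAT, from 221 to 2700 CPM with a median of 1280 CPM. In liver it ran from 157 to 407 CPM and in eWAT from 436 to 1170 CPM. Its mean log2 difference was 1.76 for BAT minus liver (SE 0.13, adjusted p 9.44e-16), but within WT mice at TN it was 0.21 (SE 0.253, adjusted p 0.535, with 50.3% of all genes called), so the BAT excess over liver was not detectable there. Between the adipose tissues Agpat2 was higher in BAT at RT, by a log2 difference of 1.68 in WT (SE 0.259, adjusted p 9.05e-07) and 1.15 in KO (SE 0.256, adjusted p 0.000355), where 42.2% and 38.9% of all genes were called. At TN the log2 differences for BAT minus eWAT were -0.43 in WT (adjusted p 0.198) and -0.22 in KO (adjusted p 0.563), with 34.4% and 32.4% of all genes called.

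The lipins divided by tissue. Lpin2 had a median of 484 CPM in liver (289 to 795), 19.7 CPM in BAT (10.6 to 26.4) and 17.6 CPM in eWAT (11.2 to 33.2), so that the lowest liver library lay far above the highest adipose library. Its mean log2 difference was -4.65 for BAT minus liver (SE 0.138, adjusted p 4.95e-29) and -4.74 for eWAT minus liver (SE 0.139, adjusted p 2.52e-29). Lpin1 was the reverse, with medians of 97.5 CPM in liver (39.1 to 345), 457 CPM in BAT (246 to 764) and 392 CPM in eWAT (258 to 550). Its mean log2 difference from liver was 1.76 in BAT (SE 0.235, adjusted p 1.18e-08) and 1.56 in eWAT (SE 0.234, adjusted p 1.42e-07). Lpin3 stayed between 3.2 and 15 CPM in all 48 libraries and no tissue difference of it was called.

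Among the enzymes of the last step, Dgat2 was the more abundant in each tissue. Per kilobase of exon its median was 178 CPM in liver, 480 CPM in BAT and 674 CPM in eWAT, while that of Dgat1 was 9.28, 62.4 and 53.7 CPM. Dgat1 was 6.51-fold higher in BAT than in liver (log2 difference 2.7, SE 0.0833, adjusted p 1.62e-28) and 5.74-fold higher in eWAT (adjusted p 1.24e-27). For BAT minus eWAT its log2 difference was 0.18 (adjusted p 0.043), a call kept in 33 of 54 alternatives. It turned to -0.24 (adjusted p 0.00207) with plain library totals and was lost with RLE scaling (adjusted p 0.0856), no filter on low counts (0.313), DESeq2 (0.0799), the replicate block (0.537) and when any 1 of 16 libraries was left out (highest adjusted p 0.301). Mogat1 and Mogat2, which feed diacylglycerol into this step, were both highest in eWAT. Mogat1 had a median of 1.88 CPM in liver (0.223 to 11.9), 6.74 CPM in BAT (2.14 to 22.2) and 24.1 CPM in eWAT (11.4 to 49.8). Mogat2 reached 3.53 to 17.3 CPM in eWAT but had at most 32 counts in any liver library and at most 30 in any BAT library, with 0 counts in 4 liver and 2 BAT libraries. A count of 0 allows up to 3 counts, so Mogat2 was close to the limit of detection in liver and BAT.

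In all, 7 of the 10 members were called for BAT minus liver (6 higher, 1 lower), against 68.8% of all genes tested. For eWAT minus liver 9 were called (7 higher, 2 lower), against 74%, and for BAT minus eWAT 7 (3 higher, 4 lower), against 60.5%. Those shares were near the background, so the number of calls says little about these genes. Averaged over the 4 genotype and housing groups, levels were ordered eWAT above BAT above liver for Gpat3, Dgat2 and Mogat1, each step being called. Within single groups some steps were not. Mogat1 in WT at TN had a log2 difference of -0.97 for BAT minus liver (adjusted p 0.0938), with mean levels of 3.49 CPM in BAT and 6.8 CPM in liver, and in KO at TN this step was also not called (adjusted p 0.0632), nor was BAT minus eWAT in WT at RT (0.449). Gpat3 missed the threshold for BAT minus liver in WT at TN (adjusted p 0.0877) and Dgat2 for BAT minus eWAT in KO at TN (0.306). For Lpin1 and Lpin2 the 2 adipose tissues did not differ beyond their spread, with log2 differences for BAT minus eWAT of 0.2 (adjusted p 0.462) and 0.09 (adjusted p 0.535). For Gpam the mean difference of BAT minus liver was not called (log2 difference -0.29, adjusted p 0.0693), but single groups went both ways. It was 0.14 in WT and 0.45 in KO at RT, neither called. At TN it was -1.2 in WT (adjusted p 0.000624, called) and -0.55 in KO (not called). For eWAT minus liver the only group with a Gpam call was WT at TN (-1.29, adjusted p 0.000247). The liver library at 1180 CPM belongs to WT at TN. Plain library totals in place of TMM moved log2 differences by 0.119 for BAT minus liver, 0.53 for eWAT minus liver and -0.412 for BAT minus eWAT. With them Gpam was no longer called for eWAT minus liver (-0.73, adjusted p 2.1e-05 with TMM and -0.21, adjusted p 0.197 without) or for BAT minus eWAT (0.02, adjusted p 0.936), nor was Agpat2 for BAT minus eWAT (0.12, adjusted p 0.344).

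Housing temperature moved some of the members in BAT. In WT mice 5 of 10 members fell at TN (Agpat2, Mogat1, Gpam, Lpin1 and Dgat1) and none rose. In KO mice 4 fell (Agpat2, Mogat1, Gpam and Dgat1) and none rose. Lpin2 (log2 change -0.4 in WT, -0.34 in KO) and Lpin3 (0.61, 0.72) were not called. Nor was Mogat2 (-1.16, -1.07), close to the limit of detection. Of all 18032 genes tested in BAT, 32.5% were called for TN minus RT in WT (16.7% lower) and 15.2% in KO (8.52% lower). The median log2 change of the 10 members was -0.876 in WT and -0.497 in KO, beside 0.112 and 0.0403 over all genes tested. In bulk tissue, fewer cells of a type and less RNA per cell cannot be told apart, here and in what follows.

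Agpat2 fell most. In WT its level was 1840, 2270, 2290 and 2700 CPM at RT and 221, 287, 364 and 765 CPM at TN. In KO it was 1790, 2010, 2090 and 2310 CPM at RT and 325, 357, 563 and 608 CPM at TN. No TN library reached any RT library in either genotype. The log2 change was -2.48 in WT (5.6-fold lower, SE 0.317, adjusted p 2.87e-05) and -2.18 in KO (4.52-fold lower, SE 0.313, adjusted p 0.000186). The library at 765 CPM, WT at TN replicate 24, also had the highest brown adipocyte marker sum of the TN libraries, 6900 CPM against 2710 to 5610 CPM in the other 7.

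Mogat1 also fell, from a far lower level. At RT the WT libraries held 8.87, 14.8, 17.7 and 22.2 CPM and the KO libraries 13.1, 16.3, 16.7 and 19.6 CPM. At TN they held 2.14, 3.26, 4.27 and 4.3 CPM in WT and 2.48, 2.56, 4.51 and 4.61 CPM in KO. The groups did not overlap, and the log2 change was -2.19 in WT (SE 0.299, adjusted p 4.86e-05) and -2.24 in KO (SE 0.299, adjusted p 8.32e-05). Exons of Mogat1 share 200 bases with BC035947 on the other strand, and the strand setting of the counting is not given, so reads of the 2 genes could be mixed there.

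Gpam held 425, 443, 557 and 597 CPM at RT and 213, 218, 285 and 347 CPM at TN in WT, a log2 change of -0.94 (SE 0.243, adjusted p 0.00652). In KO it held 347, 514, 532 and 721 CPM at RT and 159, 308, 309 and 319 CPM at TN, a log2 change of -0.98 (adjusted p 0.0102, SE 0.243). The groups of neither genotype overlapped. Dgat1 held 192, 202, 273 and 278 CPM at RT and 97.6, 121, 149 and 171 CPM at TN in WT, a log2 change of -0.82 (SE 0.184, adjusted p 0.00239). In KO it held 210, 228, 238 and 271 CPM at RT and 128, 138, 156 and 189 CPM at TN, a log2 change of -0.66 (adjusted p 0.0198, SE 0.183). The KO call of Dgat1 was lost without KO at RT replicate 9 or KO at TN replicate 2, 3 or 4 (highest adjusted p 0.0696). Dgat2, the other enzyme of that step, ran from 1150 to 2030 CPM over all 16 BAT libraries, and its log2 changes were -0.15 in WT (adjusted p 0.549) and 0.28 in KO (adjusted p 0.36).

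Lpin1 fell in WT, from 503, 508, 763 and 764 CPM at RT to 266, 270, 346 and 458 CPM at TN (adjusted p 0.0156 for a log2 change of -0.93, SE 0.277). In KO the groups overlapped, at 331, 457, 508 and 568 CPM at RT and 246, 339, 416 and 693 CPM at TN (adjusted p 0.76 for a log2 change of -0.17, SE 0.275). The difference between the genotypes was 0.76 on the log2 scale (SE 0.389) and not called (adjusted p 0.507), so a housing effect on Lpin1 of WT alone was not shown. The Lpin1 call in WT was lost when WT at RT replicate 18, WT at TN replicate 6 or WT at TN replicate 7 was left out (highest adjusted p 0.0637).

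Gpat3 had the largest BAT estimate above 0, in KO mice. Its level there was 9.35, 9.77, 10.2 and 19.2 CPM at RT and 24.2, 24.5, 27.1 and 36.5 CPM at TN, without overlap, yet its log2 change of 1.18 (SE 0.392) just missed the threshold (adjusted p 0.0557). The library at 19.2 CPM was KO at RT replicate 14, with a skeletal muscle marker sum of 4230 CPM, and without it the log2 change was 1.49 (adjusted p 0.0279). Without the 4 BAT libraries high in muscle markers, the log2 change was 1.6 and called (adjusted p 0.000629). In WT the level was 13.9, 18.8, 27.6 and 30.1 CPM at RT and 12.5, 21.9, 22.7 and 55.1 CPM at TN (adjusted p 0.581 for a log2 change of 0.3). Exons of Gpat3 share 1052 bases with 4930458D05Rik on the other strand and 259 bases with Gm42987 on the same strand, so its counts are uncertain to that extent.

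Without those 4 libraries the same 5 members were called in WT at TN. In KO Dgat1 (log2 change -0.56, adjusted p 0.0664) and Gpam (-0.57, adjusted p 0.0808) were no longer called and Agpat2 and Mogat1 were. Of all genes 27.8% were called in WT and 9.83% in KO, against 32.5% and 15.2% with the 4 libraries. They were of WT at TN, KO at RT and KO at TN, so those groups were smaller in these runs. Marker sums of other cell types and of brown adipocytes are set beside these results. The brown adipocyte marker sum ran from 7290 to 11900 CPM at RT and from 2710 to 6900 CPM at TN. The macrophage marker sum ran from 40.6 to 109 CPM at RT and from 165 to 441 CPM at TN. Neither overlapped between RT and TN. Ucp1 was the largest part of the brown adipocyte sum (median 4490 CPM). Of its 8 markers 5 were called lower in each genotype, and 2 had estimates above 0 in WT. Of the 8 macrophage markers 7 were called higher in each genotype. The mature adipocyte marker sum overlapped, at 11200 to 14100 CPM at RT and 9520 to 15900 CPM at TN. Single mature adipocyte markers of the 8 did change, with 1 higher and 2 lower at TN in WT and 2 higher in KO. Of all genes 32.5% and 15.2% were called there. The hepatocyte marker sum ran from 6.77 to 725 CPM at RT and from 25 to 2710 CPM at TN, with estimates above 0 for 8 of 8 markers in each genotype (median log2 change 1.58 in WT and 1.44 in KO, none called). The part of these in the members' changes was not tested.

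**Figure D2:**
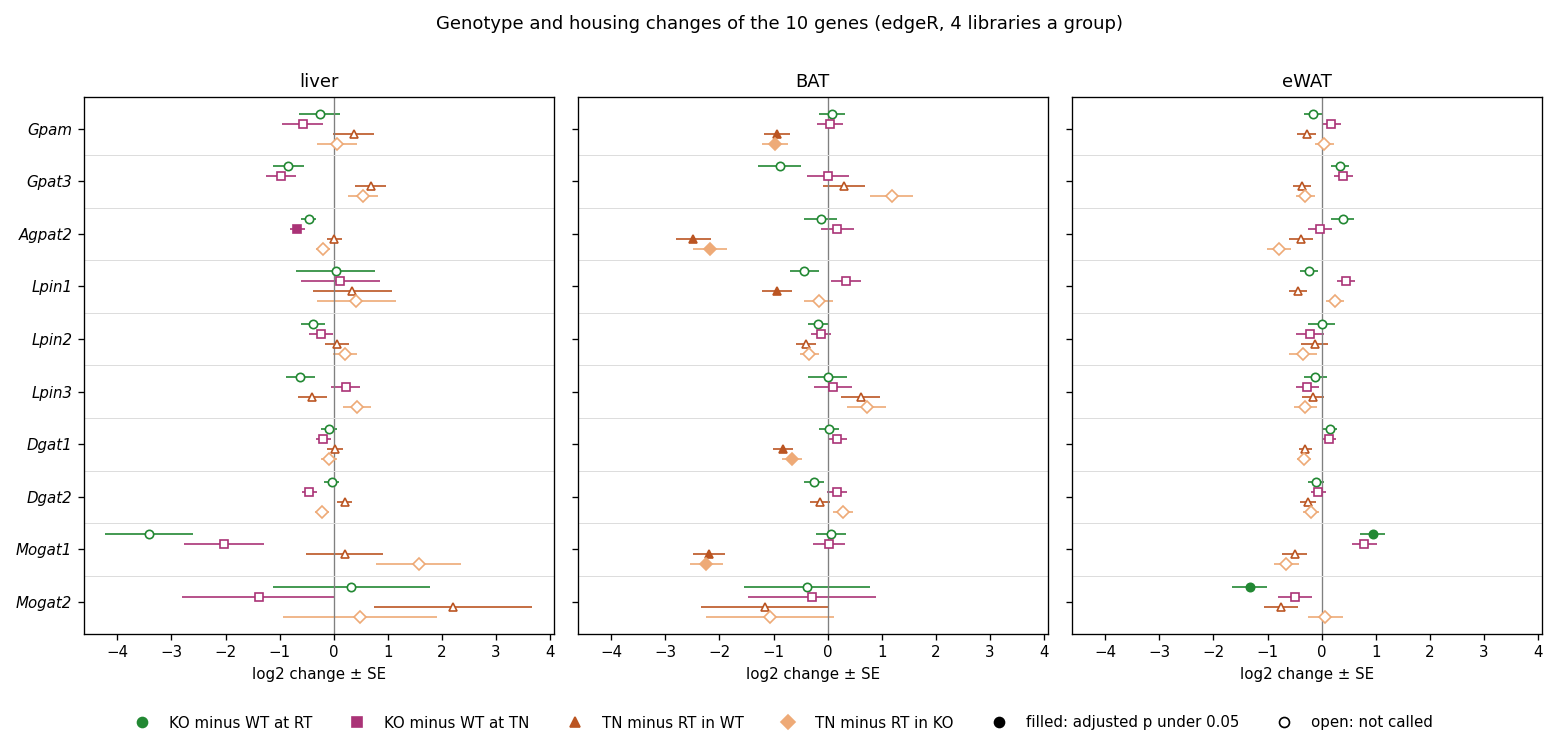
Log2 change (x axis, ± SE) of each of the 10 genes (y axis) in liver, BAT and eWAT, for the genotype comparisons at RT and TN and the housing comparisons in WT and KO. Filled symbols passed an adjusted p of 0.05 and lie mostly in BAT, led by Agpat2 at -2.48 in WT and -2.18 in KO.

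Upstream sequence was available from RefSeq (GRCm38.p6) for 4 of the 5 members that fell in BAT of WT mice, and it is shown because these genes moved together with housing. Each run is read 5′ to 3′ on the gene's strand and ends at the base before its first annotated start, after 250 bases (181 for Mogat1, whose RefSeq start lies inside the GENCODE gene). Capitals mark matches, on either strand, to AGGTCA (the core of nuclear receptor sites), CACGTG (an E-box, bound by ChREBP and other factors), TCACNCCAC (a sterol regulatory element), GGGCGG (a GC box), CCAAT and TATAAA.
Agpat2, chr2:26604418-26604667, minus strand: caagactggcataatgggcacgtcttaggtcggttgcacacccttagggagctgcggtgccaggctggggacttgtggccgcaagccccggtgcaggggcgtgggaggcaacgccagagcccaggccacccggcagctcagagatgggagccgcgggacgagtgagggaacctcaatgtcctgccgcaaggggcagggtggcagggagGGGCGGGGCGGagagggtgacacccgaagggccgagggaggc
Mogat1, chr1:78510810-78510990, plus strand: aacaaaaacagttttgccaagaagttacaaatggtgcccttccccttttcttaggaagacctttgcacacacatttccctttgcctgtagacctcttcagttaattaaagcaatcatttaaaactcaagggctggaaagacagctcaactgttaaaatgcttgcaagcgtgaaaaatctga
Gpam, chr19:55127239-55127488, minus strand: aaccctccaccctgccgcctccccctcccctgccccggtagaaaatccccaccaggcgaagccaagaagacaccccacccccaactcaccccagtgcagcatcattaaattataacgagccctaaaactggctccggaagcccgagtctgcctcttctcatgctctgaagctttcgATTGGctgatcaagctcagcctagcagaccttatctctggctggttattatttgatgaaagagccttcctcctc
Lpin1, chr12:16610967-16611216, minus strand: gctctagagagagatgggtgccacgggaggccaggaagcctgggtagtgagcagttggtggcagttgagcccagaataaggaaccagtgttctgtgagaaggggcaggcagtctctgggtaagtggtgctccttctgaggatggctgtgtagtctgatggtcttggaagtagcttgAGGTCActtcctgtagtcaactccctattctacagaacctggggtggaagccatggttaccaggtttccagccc

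The 4 windows shared no motif of the 6. Agpat2 held 2 overlapping GC boxes, a motif found in 32.7% of 32851 promoter windows of 250 bases. Gpam held 1 CCAAT box on the other strand (33.8% of windows), Lpin1 held 1 AGGTCA match (14% of windows), and the 181 bases of Mogat1 held none of the 6. E-boxes were in 6.02% and sterol regulatory elements in 1.05% of all windows of 250 bases, and TATAAA in 12.4%. A match is a description of the letters in the window and not a binding site.

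The other genes of the pathway were followed through a list of 25, which holds glycerol kinase, the glycerol-3-phosphate dehydrogenases, acyl-CoA synthetases and the remaining isozymes of each step. In BAT 22 of them were tested, and in WT at TN 6 fell and 2 rose, beside 32.5% of all genes called, a share near that of the list. Those with the lowest adjusted p that fell were the acyl-CoA synthetases Acsl5 (log2 change -3.5, SE 0.216, adjusted p 2.37e-08) and Acsl3 (-1.68, adjusted p 1.44e-05) and the dehydrogenase Gpd1, which makes glycerol-3-phosphate (-1.65, adjusted p 0.000513). The 2 that rose were Cds2, which diverts phosphatidic acid to CDP-diacylglycerol (0.88, adjusted p 0.00371), and Agpat4 (1.31, adjusted p 0.0195). In KO 4 fell, led by Acsl5 (-3.43, adjusted p 3.21e-08), Acsl3 (-1.96, adjusted p 6.93e-06) and Agpat1 (-0.81, adjusted p 0.000303), and 1 rose, Gpd1l (0.51, adjusted p 0.0118). In KO 15.2% of all genes were called. The list's median log2 change was -0.293 in WT and -0.204 in KO. Without the 4 libraries high in muscle markers the counts were again 6 and 2 in WT and 4 and 1 in KO. Those runs called 27.8% of all genes in WT and 9.83% in KO.

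Of 12 regulators of lipid synthesis, 5 fell and none rose in BAT of WT mice at TN, where 16.7% of all genes fell. Insig1, which retains the SREBP escort protein in the endoplasmic reticulum, had the lowest adjusted p (5.39e-06, log2 change -2.08). Next by adjusted p were the liver X receptor Nr1h3 (-0.49, adjusted p 0.0216) and Pparg, the regulator of fat cell formation (-0.54, adjusted p 0.0244). In KO 3 fell, Insig1 (-2.47, adjusted p 1.99e-06), Mlxipl, which encodes ChREBP (-1.06, adjusted p 0.00536), and Nr1h3 (-0.57, adjusted p 0.0179), and Cebpa rose (0.6, adjusted p 0.0216), where 8.52% of all genes fell. Without the 4 libraries high in muscle markers 2 fell in WT (Insig1 and Nr1h3, with Pparg at an adjusted p of 0.0639). In KO 2 fell (Insig1 and Mlxipl, with Nr1h3 at 0.0868), and Cebpa rose (0.72, adjusted p 0.0234). Those runs called 27.8% of all genes in WT and 9.83% in KO.

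Genotype gave no call among the members in BAT. At RT 1 of the 10, Gpat3, had an unadjusted p under 0.05 (19.4% of all genes did). Both edgeR and DESeq2 called 0 members, where they called 16 (0.0887%) and 986 of all genes. Gpat3 held 9.35 to 19.2 CPM in KO and 13.9 to 30.1 CPM in WT (adjusted p 0.233 for a log2 change of -0.89, SE 0.391). Without the 4 libraries high in muscle markers its log2 change was -1.21 and called (adjusted p 0.0288). In that run 273 of all genes (1.44%) were called, against 16 with those libraries. At TN none of the 10 had an unadjusted p under 0.05 (5.24% of all genes did) and both tools called 0 (0% of all genes by edgeR).

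In liver the genotype comparison at TN gave 1 call among the members, Agpat2, where 3.18% of all 17594 genes tested were called (1.85% lower). Its level was 303, 346, 364 and 407 CPM in WT and 157, 224, 229 and 261 CPM in KO, with no overlap, a log2 change of -0.67 (1.6-fold lower, SE 0.138, adjusted p 0.0115). At RT it was 307, 339, 365 and 368 CPM in WT and 224, 249, 257 and 277 CPM in KO, again with no overlap, but the log2 change of -0.46 (SE 0.138) was not called (adjusted p 0.212). The Agpat2 call at TN held in each of the alternatives tried, with adjusted p from 0.000383 to 0.0324.

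The 4 members next in order in liver at TN missed the threshold with edgeR. Gpat3 held 11.6, 18.3, 18.8 and 23.7 CPM in WT and 6.52, 6.59, 10.3 and 12.6 CPM in KO (adjusted p 0.057 for a log2 change of -0.98, SE 0.281), and without WT replicate 24 it was called (-1.15, adjusted p 0.0302). Dgat2 held 564, 636, 730 and 758 CPM in WT and 428, 455, 486 and 553 CPM in KO, without overlap (log2 change -0.45, SE 0.133, adjusted p 0.0633). Mogat1 held 2.07, 5.03, 8.81 and 11.3 CPM in WT and 0.323, 1.24, 1.7 and 3.28 CPM in KO (adjusted p 0.157 for a log2 change of -2.03, SE 0.746). Gpam held 395, 428, 440 and 1180 CPM in WT and 276, 362, 468 and 498 CPM in KO (adjusted p 0.494 for a log2 change of -0.57, SE 0.378). DESeq2 called 4 of the 10 in this comparison, all lower in KO: Dgat2, Mogat1, Gpat3 and Agpat2. Of all genes it called 1165, where edgeR called 560.

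At RT no member was called in liver by edgeR, and 4 had an unadjusted p under 0.05 (10.2% of all genes did). DESeq2 called 1 (Mogat1) and 208 of all genes, where edgeR called 15 (0.0853%). Mogat1, which is known to be induced in fatty liver, held 0.728, 3.61, 7 and 11.9 CPM in WT and 0.223, 0.604, 0.622 and 0.756 CPM in KO. Its estimated log2 change was the largest of any member and comparison within a tissue, -3.41 (SE 0.811), with an adjusted p of 0.128. The lowest WT library, replicate 15, fell within the KO range, while the other 3 lay above it. Leaving out that library gave a log2 change of -3.78 and a call (adjusted p 0.0373). Gpat3 held 8.72, 9.24, 12.1 and 14.3 CPM in WT and 3.29, 6.93, 7.1 and 7.6 CPM in KO at RT, without overlap (log2 change -0.84, adjusted p 0.269).

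Of the pathway list, 23 genes were tested in liver, and 4 fell in KO at TN and none rose. Of all genes 3.18% were called there (1.85% lower). The 4 pathway genes were Lclat1 (log2 change -0.56, adjusted p 0.0174), the acyltransferase Agpat3 (-0.53, adjusted p 0.019), Acsl1, the main acyl-CoA synthetase of the liver (-0.74, adjusted p 0.0266), and, named after its value was seen, Gpd1 (-0.62, adjusted p 0.0492). Of the 12 regulators 1 fell, Pparg (-1.24, SE 0.324, adjusted p 0.0476), and none rose. The median log2 change in liver of KO at TN was -0.508 over the 10 members, -0.11 over the pathway list and 0.0519 over all genes tested. The macrophage marker sum was 302 to 592 CPM in KO and 197 to 272 CPM in WT at TN, without overlap, and 1 of 8 markers was called, higher. At RT it was 176 to 301 CPM in KO and 250 to 297 CPM in WT, with overlap and no marker called. At TN the B cell and lymph node sum was 19.5 to 40.6 CPM in KO and 9.38 to 16.3 CPM in WT, the brown adipocyte sum 45.6 to 77.4 and 94.6 to 110 CPM, and the mature adipocyte sum 72.8 to 252 and 216 to 302 CPM, of which only the last overlapped. In liver the largest part of the brown adipocyte sum was Elovl3 (median 71.7 CPM), while Ucp1 was at 0 in 15 of 16 libraries. Cfd was the largest part of the mature adipocyte sum (median 65.7 CPM), and Adipoq was at 0 in 15 of 16. No marker of either list was called (4 and 5 tested), so these sums do not show a difference in adipocyte content. The part of the marker sums in the liver results was not tested.

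In eWAT the monoacylglycerol acyltransferases moved in opposite directions with genotype at RT, where 4.34% of all 18933 genes tested were called (1.2% higher, 3.13% lower). Mogat1 rose in KO, from 17, 21.2, 21.2 and 28 CPM in WT to 30.7, 41.7, 45.1 and 49.8 CPM (log2 change 0.94, 1.92-fold, SE 0.227, adjusted p 0.0263). Mogat2 fell, from 9.52, 16.4, 17.2 and 17.3 CPM in WT to 3.82, 6.69, 6.69 and 6.84 CPM in KO (log2 change -1.33, 2.51-fold, SE 0.318, adjusted p 0.0255). Neither gene's groups overlapped. Mogat2 lies 36364 bases from Dgat2 on the same strand of chromosome 7, and the log2 change of Dgat2 in this comparison was -0.11 (adjusted p 0.779).

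These 2 calls were close to the threshold. Leaving out any 1 of the 8 libraries kept both directions and ended at least 1 of the calls. Mogat1 was still called without KO replicate 9, KO replicate 16 or WT replicate 12 (adjusted p over the 8 runs 0.0191 to 0.0809), and Mogat2 only without WT replicate 15 (0.0271 to 0.0855). Without WT at RT replicate 18, the library with epididymis markers, the log2 changes were 0.97 (adjusted p 0.0728) and -1.22 (adjusted p 0.0855). The mature adipocyte marker sum ran from 27900 to 33100 CPM in WT and from 29900 to 43100 CPM in KO at RT, and the macrophage marker sum from 712 to 1020 CPM in WT and from 516 to 723 CPM in KO. The hepatocyte marker sum ran from 42.1 to 1690 CPM in WT and from 125 to 4930 CPM in KO, highest in KO replicate 16, which also had the lowest Mogat1, Mogat2 and Agpat2 levels of its group and the highest Lpin2 (33.2 CPM). Their part in the Mogat1 and Mogat2 changes was not tested. Of the 22 pathway genes tested in eWAT, Gpat4 rose in KO at RT (adjusted p 0.0115, log2 change 0.56), Plpp3 (-0.55, adjusted p 0.0209) and Cds1 (-0.62, adjusted p 0.0456) fell, and of the regulators only Ppargc1a was called, higher (1.3, adjusted p 0.023). Without WT at RT replicate 18 only Gpat4 of these 4 was called (0.59, adjusted p 0.0344). Plpp3 was then at an adjusted p of 0.0736, Cds1 at 0.144 and Ppargc1a at 0.0673. In that run 1.47% of all genes were called, against 4.34% with the library.

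At TN no member was called in eWAT for KO minus WT by edgeR, and 3 had an unadjusted p under 0.05 (13.7% of all genes did). DESeq2 called 1 (Mogat1) and 713 of all genes, where edgeR called 111 (0.586%). Mogat1 held 11.4, 12.6, 16.3 and 21.4 CPM in WT and 17.6, 26.9, 27.4 and 35.3 CPM in KO (adjusted p 0.112 for a log2 change of 0.79, SE 0.228). Mogat2 held 4.49, 9.35, 10.7 and 11.3 CPM in WT and 3.53, 5.51, 6.32 and 10.1 CPM in KO (adjusted p 0.52 for a log2 change of -0.5). For TN minus RT in WT no member was called in eWAT (0% of all genes), 5 had an unadjusted p under 0.05 (6.99% of all genes did) and DESeq2 called 0. All 10 log2 estimates there were below 0, with a median of -0.333 beside -0.014 over all genes. For TN minus RT in KO edgeR called 0 members, with 330 of all genes (1.74%) called. At an unadjusted p under 0.05 there were 3 members (17.5% of all genes). DESeq2 called 2, Mogat1 and Agpat2, with 1222 of all genes called. Agpat2 held 618, 925, 983 and 1170 CPM at RT and 485, 509, 517 and 642 CPM at TN in those mice (log2 change -0.79, SE 0.217, adjusted p 0.0685), and without KO at RT replicate 16 the change was called (-0.95, adjusted p 0.0246). The hepatocyte marker sum of that library was 4930 CPM, against 125 to 2110 CPM in the other 3 at RT and 54.6 to 528 CPM at TN, with 8 of 8 marker estimates below 0 (median log2 change -2.99, none called). Its part in the Agpat2 estimate was not tested.

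In liver no member was called for TN minus RT, in WT (0.0227% of all genes; at an unadjusted p under 0.05, 1 member and 7.25% of all genes) or in KO (0.114%; none and 10.5%), and DESeq2 called 0 in both. The interaction of genotype and housing called 0 members in each tissue with edgeR, where it called 0% of all genes, and 0 with DESeq2. At an unadjusted p under 0.05 there were 2 members in liver (Dgat2 and Lpin3, beside 7.33% of all genes), none in BAT (10.2%) and 1 in eWAT (7.6%), Lpin1 (log2 difference 0.68, SE 0.238, adjusted p 0.581).

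**Figure D3:**
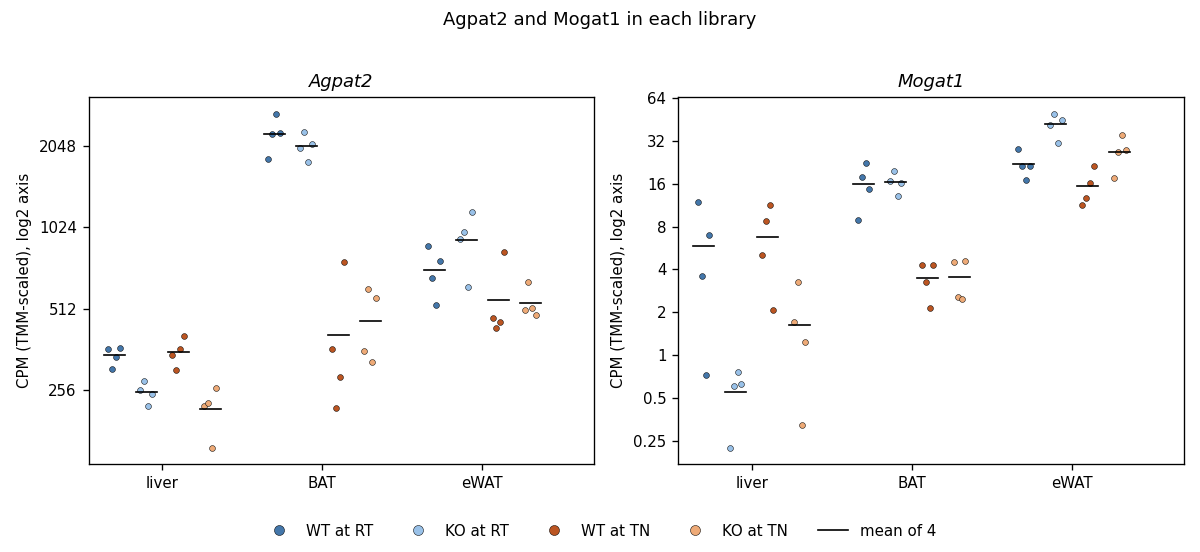
Agpat2 and Mogat1 in each library (y axis, TMM-scaled CPM on a log2 axis) by tissue, genotype and housing; points are libraries and black lines the mean of 4. BAT Agpat2 lies between 1790 and 2700 CPM at RT and between 221 and 765 CPM at TN, and Mogat1 at RT lies at 0.223 to 0.756 CPM in KO livers but at 30.7 to 49.8 CPM in KO eWAT.

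Whether an effect differed among the 3 tissues was tested directly in the fit over 48 libraries. For the genotype effect at RT this held for 1 member, Mogat1 (adjusted p 0.00268), against 1.95% of all 21910 genes tested. Mogat1 had a log2 change of -3.41 in liver, 0.06 in BAT and 0.94 in eWAT. At TN the values were -2.03, 0.02 and 0.79, and the difference was not called (adjusted p 0.0578, with 0.826% of all genes called). Leaving out liver WT at RT replicate 11 or 15, liver KO at TN replicate 4, liver WT at TN replicate 24 or BAT WT at TN replicate 24 brought it past the threshold (lowest adjusted p 0.024), and the last of these runs also called Gpat3 (0.0382) and Agpat2 (0.0387). For the housing effect in WT 3 members were called, Agpat2 (adjusted p 7.55e-06), Dgat1 (0.0145) and Mogat1 (0.0272), against 15.1% of all genes (5 members without BAT WT at TN replicate 24), and in KO 2, Agpat2 (0.00188) and Mogat1 (0.00543), against 4.03%. The housing change of Agpat2 in WT was 0.01 in liver, -2.48 in BAT and -0.38 in eWAT, and in KO -0.2, -2.18 and -0.79. Without BAT WT at RT replicate 17 or BAT WT at TN replicate 6 the WT calls of both Dgat1 and Mogat1 were lost (adjusted p at most 0.0768), and that of Mogat1 also without BAT WT at RT replicate 15, BAT WT at TN replicate 7 or liver WT at TN replicate 7 (at most 0.0798). The Agpat2 calls were kept in each run that left out 1 library, as was that of Mogat1 for the genotype effect at RT (adjusted p from 0.000153 to 0.0109). With the replicate block the Mogat1 calls for the genotype effect at RT (0.162) and the housing effect in KO (0.123) and WT (0.0913) were lost. So was the Dgat1 call in WT (0.186), while those of Agpat2 were kept. Whether a number shared by tissues marks 1 mouse is not given in the labels. With plain library totals the WT calls of Dgat1 (0.245) and Mogat1 (0.0868) were lost. Without the 4 BAT libraries high in muscle markers Mogat1 was not called in WT (0.0764), while Gpat3 was called for the genotype effect at RT (0.0223) and TN (0.0356) and for the housing effect in KO (0.00758).

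Ratios of isozyme counts within a library depend on neither library scaling nor, for their changes, gene length. In BAT the log2 ratio of Dgat2 to Dgat1 was 2.58, 2.69, 2.93 and 2.98 in WT and 2.09, 2.29, 2.68 and 2.88 in KO at RT. At TN it was 3.05, 3.54, 3.61 and 3.65 in WT and 3.24, 3.26, 3.42 and 3.76 in KO, without overlap with RT. The differences of 0.67 in WT and 0.94 in KO each had an exact permutation p of 0.0286, the smallest that 4 against 4 libraries allow (two-sided). The log2 ratio of Gpat3 to Gpam in BAT ran from -4.93 to -4.31 in WT and from -5.78 to -5.09 in KO at RT, and from -4.09 to -2.65 in WT and from -3.65 to -2.71 in KO at TN. Its differences of 1.1 (TN minus RT in WT), 2.22 (TN minus RT in KO) and -0.94 (KO minus WT at RT) had the same exact p of 0.0286. Of the 36 ratio comparisons made, these 5 were at that smallest p and none passed after Benjamini-Hochberg adjustment (lowest adjusted p 0.206 from the exact permutation tests). With only 5 of 36 at the smallest p possible, the adjusted p could not fall under 0.05, so the adjustment decides nothing about these 5.

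The lipin ratio set liver apart from both adipose tissues without overlap. The log2 ratio of Lpin2 to Lpin1 had a median of 2.33 in liver (0.61 to 2.89), -4.42 in BAT (-6.02 to -3.85) and -4.42 in eWAT (-5.55 to -3.57). That of Gpat3 to Gpam was -5.55 in liver (-6.66 to -4.17), -4.2 in BAT (-5.78 to -2.65) and -1.14 in eWAT (-1.78 to -0.32), with eWAT apart from the rest. That of Dgat2 to Dgat1 was 4.22 in liver (4.12 to 4.85), 3.01 in BAT (2.09 to 3.76) and 3.7 in eWAT (3.26 to 4.15).

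**Figure D4:**
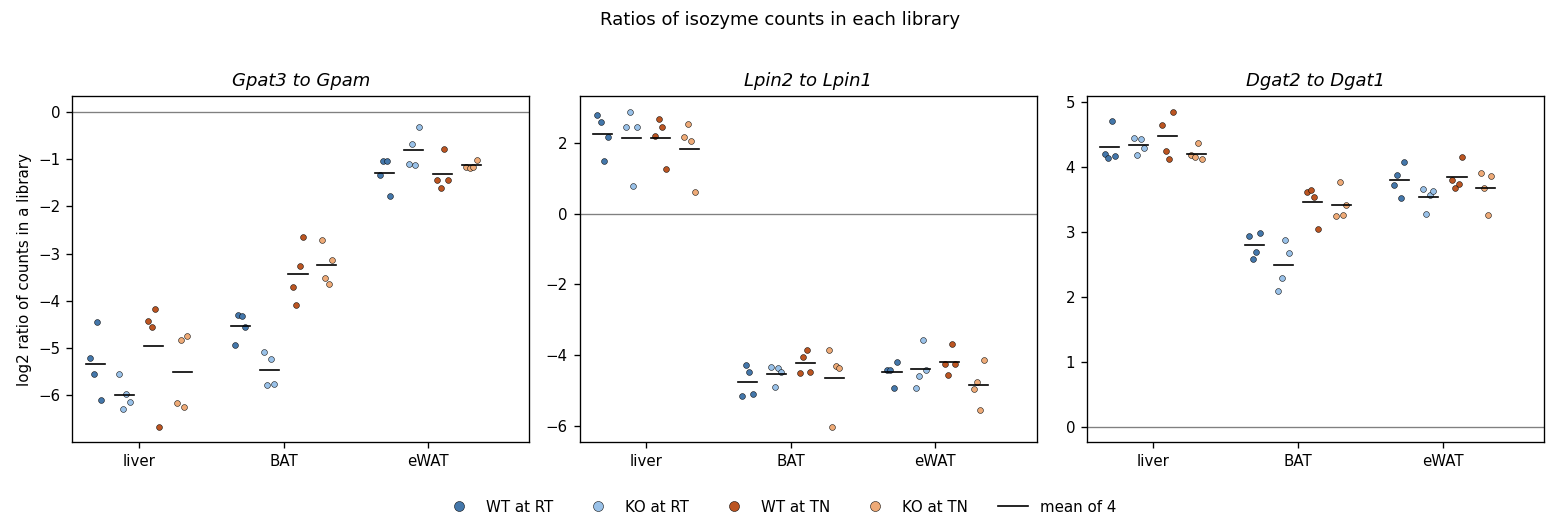
Log2 ratio of isozyme counts (y axis) in each library for Gpat3 to Gpam, Lpin2 to Lpin1 and Dgat2 to Dgat1, by tissue, genotype and housing; points are libraries, black lines the mean of 4 and the grey line equal counts. The BAT ratios of Dgat2 to Dgat1 lie between 2.09 and 2.98 at RT and between 3.05 and 3.76 at TN.

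The genes with the pattern most like each member over the 12 group means were found by the root mean square (RMS) difference of centred log2 CPM among 13004 genes. Dgat2 had the closest, Papss1 and Ptpa (RMS difference 0.133 and 0.134). For Gpam they were Oxsm (0.162) and Afg3l1 (0.165), for Dgat1 Ppm1m (0.17) and Sh3glb1 (0.206), for Lpin3 LTO1 (0.176) and Rpa1 (0.179), for Lpin2 Tedc2 (0.189) and Sord (0.21), and for Lpin1 Lrrc51 (0.206) and Stx6 (0.214). Agpat2 was nearest to Dhrs7 (0.273) and Psph (0.334), and Gpat3 to Igsf10 (0.341) and Sulf2 (0.344). Mogat1 (Insl6, 0.773, and Morc4, 0.861) and Mogat2 (Unc5a, 0.748, and Hist2h3c2, 0.777) had no close match. No member was among the nearest 2 of another.

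On the GRCm38 build the members lie apart from each other, except Mogat2 and Dgat2. Gpam (ENSMUSG00000024978) spans chr19:55067268-55127238, Gpat3 (ENSMUSG00000029314) chr5:100845713-100899102 and Agpat2 (ENSMUSG00000026922) chr2:26593057-26604417, where 64 exon bases overlap Egfl7 on the other strand. Lpin1 (ENSMUSG00000020593) spans chr12:16535669-16610966, Lpin2 (ENSMUSG00000024052) chr17:71182560-71249817 and Lpin3 (ENSMUSG00000027412) chr2:160880670-160906002. Dgat1 (ENSMUSG00000022555) spans chr15:76502015-76511953, Dgat2 (ENSMUSG00000030747) chr7:99153658-99182719, Mogat1 (ENSMUSG00000012187) chr1:78510991-78538173 and Mogat2 (ENSMUSG00000052396) chr7:99219084-99238619, where 55 exon bases overlap Gm45012 on the other strand. The coordinates and exon lengths come from GENCODE release M21, whose gene set is not identical to that of the count tables.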

How the data were processed

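Per the labels' protocols, total RNA was extracted with Maxwell RSC simplyRNA kits, libraries were made with NEBNext Ultra kits and paired-end reads were taken on a NovaSeq instrument. The authors deposited raw counts per Ensembl gene and library; the submitters' processing notes name fastp, STAR 2.6.1d, featureCounts 1.5.0-p3 and GRCm38 (mm10). The annotation release and the strand setting of the counting are not given in the sources used here. Symbols came from a reference gene table (52073 of 56748 identifiers, 91.8%, and at least 94.8% of the counts of each library). Coordinates and exon lengths came from GENCODE M21, and promoter sequences from RefSeq (7 of 10 members had an entry).

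The labels gave each library's tissue, genotype and housing, and number the libraries as biological replicates. The 16 libraries of a tissue were fitted together by edgeR 4.0.16 under R 4.3.3 (TMM, filterByExpr with a minimum count of 10, robust quasi-likelihood F tests), which kept 17594 (liver), 18032 (BAT) and 18933 (eWAT) genes, with all 10 members in each. Tissues were compared, and effects tested for a difference among tissues, in 1 fit over 48 libraries (21910 genes). P values are two-sided and adjusted (Benjamini-Hochberg) over every gene tested in the same comparison, with a threshold of 0.05. Printed CPM use the scaling over 48 libraries, which differs from that of the tissue fits by at most 0.0547 on the log2 scale within a tissue; marker sums use plain library totals. Isozyme ratios (pseudocount 0.5 counts) were compared by exact permutation tests. No 2 libraries of a group agreed within sampling noise (lowest chi-square per degree of freedom 17.1 over 72 pairs).

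The members, the gene lists and the marker lists were chosen with earlier results of these data known. All 10 members and Agt are always named; of the pathway and regulator lists, up to 3 genes per direction with the lowest adjusted p among those called in a comparison; and for each member the 2 genes with the most similar pattern, among named genes averaging 1 CPM or more. Alternatives were RLE scaling, plain totals, other filters, DESeq2 1.42.0, fits over the 8 libraries of a comparison, omission of single libraries, a replicate block, another pseudocount and medians for the ratios. Leaving out the 4 BAT libraries high in muscle markers, for members and lists, or the eWAT library with epididymis markers, for lists, was chosen after seeing the data. The edgeR steps were tested on simulated data.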

Additional observations from a re-analysis of the deposited data

Results flagged for a closer look

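Of 120 groups of 4 libraries examined for the 10 genes, 11 held 1 library whose gap to the nearest of the others was a larger share of the group's range than Dixon's 95% critical value for 4 samples. Chance flags about 1 in 20 groups. In liver they were Dgat2 in WT at RT replicate 15 (678 CPM, highest), Lpin2 in WT at RT replicate 18 (655 CPM, highest), Gpat3 in KO at RT replicate 10 (3.29 CPM, lowest) and Gpam in WT at TN replicate 24 (1180 CPM, highest). In BAT they were Gpat3 in KO at RT replicate 14 (19.2 CPM, highest) and Gpam in KO at TN replicate 2 (159 CPM, lowest), both among the libraries high in skeletal muscle markers. In eWAT they were Mogat2 in KO at RT replicate 16 (3.82 CPM, lowest), Mogat2 in WT at RT replicate 15 (9.52 CPM, lowest), Lpin1 in KO at RT replicate 10 (303 CPM, lowest), and Gpat3 (118 CPM) and Agpat2 (833 CPM), both highest, in WT at TN replicate 23.

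By the F tests of edgeR, the genotype effect at RT differed among the 3 tissues for Mogat1 (adjusted p 0.00268). The housing effect in WT differed for Agpat2 (adjusted p 7.55e-06), Dgat1 (0.0145) and Mogat1 (0.0272), and that in KO for Agpat2 (0.00188) and Mogat1 (0.00543).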

How the results depend on the processing

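DESeq2 called 1 member in liver for KO minus WT at RT (edgeR 0), 4 at TN (edgeR 1), 1 in eWAT for KO minus WT at TN (edgeR 0) and 2 in eWAT for TN minus RT in KO (edgeR 0); it also called more of all genes, 208 against 15 and 1165 against 560 in the 2 liver comparisons and 713 against 111 and 1222 against 330 in the 2 eWAT ones. In liver at TN, no filter on low counts and a fit over the 8 libraries compared each called 2 members, and a filter of 1 CPM in 4 libraries called 1 in eWAT for TN minus RT in KO. Without the 4 BAT libraries high in muscle markers, 1 member was called in BAT for KO minus WT at RT (0 with them). Of all genes 273 were called in that comparison, against 16 with them. Among tissues 2 members were called without them for the genotype effect at RT (1 with them) and 1 at TN (0 with them). With plain library totals 4 members were called for the housing effect in KO among tissues (2 with TMM), and the log2 difference of Dgat1 for BAT minus eWAT turned to -0.24; that scaling moved log2 differences by -0.412 for BAT minus eWAT. With the replicate number as a block, 0, 1 and 1 members were called among tissues for the genotype effect at RT, the housing effect in WT and that in KO (1, 3 and 2 without the block), and 5 for BAT minus eWAT (7 without). The labels do not say whether a number shared by tissues marks 1 mouse. Over 35 same-numbered pairs the correlation of deviations from the group mean ran from -0.328 to 0.156, above 0.1 in 1 pair. Such correlations between different tissues cannot decide it. Within a tissue the groups compared share no numbers.

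Leaving out 1 library at a time gave 0 to 1 members for KO minus WT at RT in liver and in eWAT, 1 to 2 at TN in liver, 4 to 6 for TN minus RT in BAT of WT and 3 to 5 of KO, 0 to 1 in eWAT of KO, and among tissues 0 to 3 for the genotype effect at TN and 1 to 5 for the housing effect in WT. The cause of these differences was not tested. Counts limit Mogat2 in liver and BAT, and Mogat1 in KO livers, where 6 to 88 counts stood behind a value.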
